A study of Mus musculus with 23 samples.

Results

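Mitochondrial ribosomal proteins are the proteins that, together with ribosomal RNA, build the ribosome inside mitochondria. The genes described here are the protein-coding rows of the count table whose Ensembl ID carries a GENCODE mouse symbol of Mrpl or Mrps followed by a number. The family was picked with earlier results of these data known, but no measured value entered this symbol rule. It found 78 genes among 54393 in the table, of which 21847 are protein-coding, with 49 Mrpl and 29 Mrps symbols on 17 chromosomes. A further 5 symbol matches were not protein-coding and were left out. By position in the ribosome, 51 of the 78 proteins belong to the large subunit, among them Mrps30 and Mrps18a despite their symbols, and 26 to the small subunit. Mrps36 belongs to neither: it is a component of the 2-oxoglutarate dehydrogenase complex of the citric acid cycle and keeps an older name.

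The mitochondrial ribosome translates only the few membrane proteins that mitochondrial DNA encodes, which are core subunits of the respiratory chain and the ATP synthase. Its RNAs are transcribed in the mitochondrion, whereas every one of its proteins is encoded in the nucleus and imported. The small subunit reads the messenger RNA, and the large subunit forms the peptide bond and guides the new protein to the inner membrane. In the connecting tubule and collecting duct, mitochondria supply ATP for the sodium pump that drives sodium reabsorption and potassium secretion, which aldosterone controls through the mineralocorticoid receptor, the product of Nr3c2.

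The data are RNA-seq libraries of connecting tubules and cortical collecting ducts microdissected from mouse kidney, 23 in all. All mice carried Pax8-rtTA, TRE-LC-1 and MRflox/flox, which together delete Nr3c2 under doxycycline in cells where the Pax8 promoter is active, along the renal tubule and not in the dissected segments alone. For 2 weeks the knockout mice drank sucrose water (5%) with doxycycline at 2 mg/ml, and a rescue diet followed during a washout of 2 weeks, while control mice drank the same water without the drug. Potassium diets were then given for 4 days. Of the controls, 5 libraries came from a normal potassium diet (CT-NK) and 6 from a high potassium diet (CT-HK). Of the knockouts, 6 libraries came from normal potassium (KO-NK) and 6 from low potassium (KO-LK). Each knockout comparison is therefore also a comparison of doxycycline with none, and the labels give the rescue diet for the knockout mice only. The labels do not say that each library came from a different mouse, so p-values here reflect only how these libraries vary, which may be technical. In bulk tubules, fewer cells of a type and less RNA per cell cannot be told apart.

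Nr3c2 itself lay at 66.6 to 151 CPM in CT-NK (counts scaled to library size, with TMM factors, which assume that most genes do not change), median 117, and at 70.2 to 145 in CT-HK, median 112. It lay at 47.7 to 71.5 CPM in KO-NK, median 58.4, and at 34.2 to 74.1 in KO-LK, median 52.3. The groups overlapped at their edges. In log2 units Nr3c2 fell by 0.88 from CT-NK to KO-NK (SE 0.22, edgeR adjusted p = 0.0373) and by 0.99 from CT-NK to KO-LK (SE 0.22, edgeR adjusted p = 0.0134). Library totals ranged from 16158408 to 34154475 counts. Every marker list of the dissected segments was detected, with summed collecting duct principal cell markers (Aqp2, Aqp3 and others) between 3575 and 10395 CPM. Connecting tubule markers summed to 19276 to 63050 CPM in control libraries and 4663 to 18648 in knockout libraries, and 3 of 5 (S100g, Klk1 and Calb1) fell in KO-NK versus CT-NK. The calcium channel gene Trpv5, of the same list, stood at 0.67 on the log2 scale there (edgeR adjusted p = 0.378). In KO-LK versus CT-NK, Trpv5 rose by 1.28 (edgeR adjusted p = 0.028), while S100g and Calb1 fell. Markers of the proximal tubule, which is not part of these segments, were also counted: none of the 15 was at 0 in all libraries, and their summed level ran from 572 to 20366 CPM (CT-NK) and 290 to 37075 CPM (CT-HK) in controls. In knockouts it ran from 1175 to 6805 CPM (KO-NK) and 422 to 1777 CPM (KO-LK).

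All 78 genes passed the filter on low counts in every fit, so each could be followed in all 23 libraries. Summed over the family, the TMM-scaled level was 5025 ± 613 CPM (SD, n = 5) in CT-NK and 5602 ± 926 (SD, n = 6) in CT-HK. In the knockouts it was 3902 ± 750 CPM (SD, n = 6) in KO-NK and 4007 ± 453 (SD, n = 6) in KO-LK. The highest knockout library (4715 CPM) lay above the lowest control library (4110 CPM), so the sums overlapped. In TPM, which divides by transcript length and sets every library to the same total, the family summed to 5512 ± 991 (CT-NK) and 5329 ± 647 (CT-HK) in controls. The knockouts summed to 5303 ± 524 (KO-NK) and 5646 ± 415 TPM (KO-LK). The TPM sums of the 4 groups lay within each other's spread. The TMM factors by which library totals were multiplied had means of 0.966 and 0.887 in the controls on normal and high potassium and 1.09 and 1.10 in the knockouts on normal and low potassium, so that scaling lowered the knockout CPM and raised the control CPM.

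**Figure D1:**
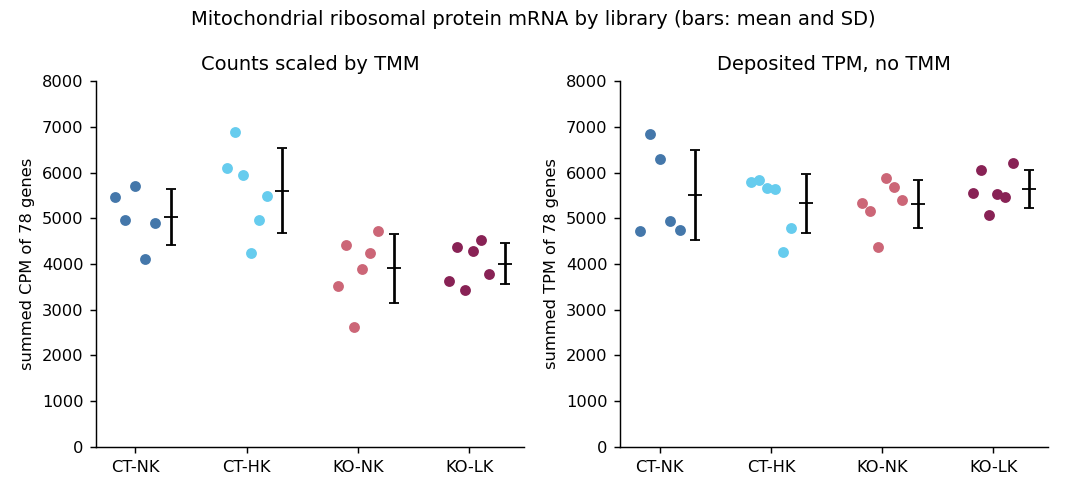
Summed level of the 78 mitochondrial ribosomal protein genes in each library by group, as TMM-scaled CPM on the left and as deposited TPM on the right, with group means and SD. In CPM the control means are 5025 and 5602 against 3902 and 4007 in the knockouts, while in unscaled TPM all 4 means lie between 5303 and 5646.

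On normal potassium, knockout and control mice ate the same diet in the final 4 days and differed in receptor deletion, doxycycline and the earlier rescue diet. All 78 genes had a lower fitted level in KO-NK than in CT-NK on the TMM scale, where 36.6% of the 25829 genes tested did. Their log2 fold changes ran from -0.76 for Mrpl2 to -0.04 for Mrpl48 with a median of -0.35, against a median of 0.15 over all genes. All genes here include many with fewer counts or longer transcripts than most members. Among genes in the shortest of 4 length classes with a mean CPM at least that of the lowest member, the median was -0.24. With library totals in place of TMM and nothing else changed, the family's median was -0.20 with 71 of 78 values below 0, and that of all genes was 0.34. On log2(TPM + 1), with no TMM scaling, the medians were -0.03 and 0.28. The added 1 makes fold changes of low genes look smaller. Past an edgeR adjusted p of 0.05, 3 of the 78 fell (Mrps36, Mrps21 and Mrpl16), or 3.85%, and none rose. Of all genes, 0.763% fell and 0.937% rose by the same rule. At an unadjusted p under 0.05, 42 of the 78 were lower, as were 5.71% of all genes. The 3 calls were not stable: dropping any of replicates 1, 2, 3 and 5 of CT-NK, or the first of KO-NK, ended all of them. Dropping KO-NK replicate 6 gave 13 calls. For fits with 1 library left out, here and below, the share of all genes that fell is not given.

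Knockout mice on low potassium against control mice on normal potassium differ in receptor and diet, and this comparison shares its control libraries with the one before. The fitted level was lower in KO-LK for 77 of the 78 genes on the TMM scale, against 53.8% of all genes, and the exception was Mrpl33 at 0.04. The median log2 fold change was -0.29, beside -0.04 over all genes, and it turned to 0.07, beside 0.26 over all genes, on unscaled log2(TPM + 1). Mrpl4 and Mrpl28 fell, 2 of 78 or 2.56%, where 1.13% of all genes fell. No member rose, where 0.914% of all genes did. At an unadjusted p under 0.05, 33 members and 6.42% of all genes were lower. Without CT-NK replicate 1, 2, 3 or 5, or without KO-LK replicate 1, 3 or 5, neither call remained, and without KO-NK replicate 3 there were 19 calls.

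KO-NK versus CT-HK sets the knockout on normal potassium beside the control on high potassium, and it shares no library with KO-LK versus CT-NK. Here 38 of the 78 genes fell, or 48.7%, against 3.32% of all genes, and none rose, against 2.46% of all genes. The TMM-scaled log2 fold change was below 0 for all 78, with a median of -0.50 against 0.21 over all genes and a range from -0.96 (Mrpl41) to -0.13 (Mrpl23). At an unadjusted p under 0.05, 70 members and 10.1% of all genes were lower. On unscaled log2(TPM + 1) the median was 0.02, beside 0.40 over all genes. The largest drops after Mrpl41 were 0.93 for Mrpl2 and 0.87 for Mrpl34. Leaving out 1 library moved the count between 18, without CT-HK replicate 2, and 62, without CT-HK replicate 4. With the mean of both knockout groups set against the mean of both control groups, 52 of 78 genes fell, or 66.7%, against 5.86% of all genes. None rose, where 4.67% of all genes did. That pooled contrast had a median of -0.40 for the family and 0.09 for all genes on the TMM scale, and 0.05 and 0.32 on unscaled log2(TPM + 1).

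**Figure D2:**
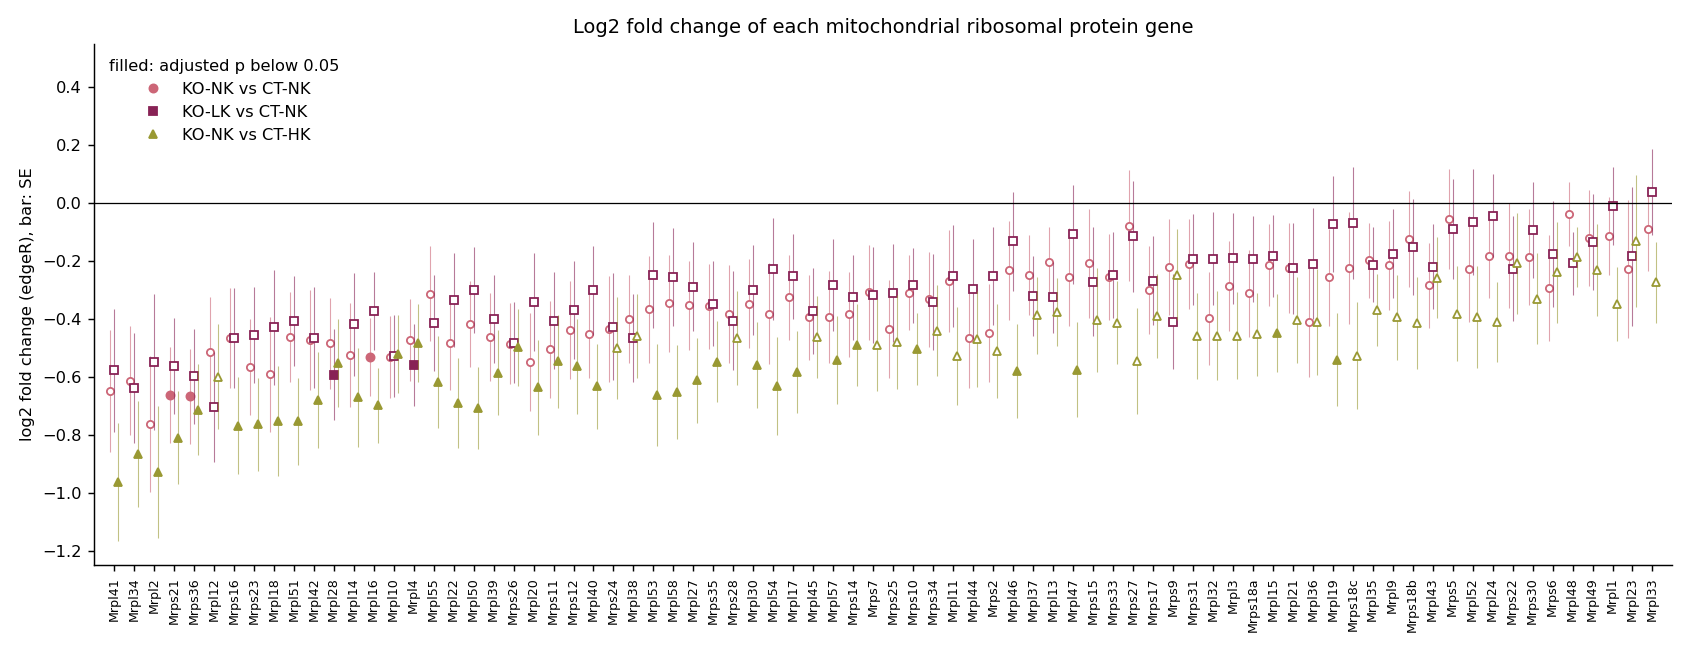
Fitted log2 fold change of each of the 78 genes on the TMM scale in 3 knockout against control comparisons, with bars of 1 SE and filled symbols for an edgeR adjusted p below 0.05. All points but one (Mrpl33 at 0.04 in KO-LK versus CT-NK) lie below 0, a direction that unscaled TPM does not keep.

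How many members passed the threshold varied with the setting, while the family's median stayed below that of all genes in the knockout against control comparisons. With a stricter filter, 5 CPM in at least 5 libraries, 12421 genes were tested, and 53, 51, 69 and 72 members fell in KO-NK and KO-LK versus CT-NK, in KO-NK versus CT-HK and in the pooled contrast. Of all genes kept by that filter 11.3%, 11.1%, 15.7% and 20.8% fell. DESeq2 put the numbers at 18, 12, 64 and 65, against 2.28%, 3.11%, 6.66% and 9.03% of all genes. Both included every member called before. Limma on unscaled log2(TPM + 1) gave few calls: 0, 0, 0 and 1 members fell, against 0.859%, 1.07%, 0.941% and 1.82% of all genes. By that test 0, 1, 2 and 6 members rose, against 16.6%, 23.2%, 28.7% and 39.5% of all genes. Library totals in place of TMM, chosen after seeing the data, gave 12, 8, 21 and 29 members that fell, against 1.44%, 1.74%, 2.19% and 3.53% of all genes. In that fit 71, 61, 70 and 67 of the 78 values were below 0, with medians of -0.20, -0.10, -0.22 and -0.16. Limma on TMM-scaled TPM, also chosen after seeing the data, gave 21, 10, 42 and 55, against 2.9%, 2.55%, 5.56% and 7.56%. DESeq2 size factors in edgeR gave 5, 7, 55 and 62, against 0.987%, 1.54%, 4.73% and 7.31%. With no filter on low counts, 51822 genes were tested and 0, 0, 12 and 32 members fell, against 0.129%, 0.235%, 0.934% and 2.13% of all genes. With only the compared groups in the fit, 2, 9 and 21 members fell in the first 3 comparisons, against 0.421%, 2.12% and 3.63%. In each of these settings the median of the family lay below the median of all genes in the comparisons fitted.

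No member passed the test when potassium alone differed. In control tubules on high against normal potassium, 0 of the 78 passed the edgeR threshold in either direction, as did 0% of all genes, and DESeq2 also called 0 members (0.0503% of all genes lower and 0.0271% higher). The fitted level was higher in CT-HK for 73 of the 78, with a median of 0.17 beside -0.01 over all genes, but the median was -0.04 on unscaled log2(TPM + 1). Only Mrps27 reached an unadjusted p under 0.05, at 0.47 on the log2 scale (SE 0.19, edgeR adjusted p = 0.9998), where 3.59% of all genes did in either direction. Within the knockout, KO-NK versus KO-LK gave 0 members past the threshold by edgeR, again with 0% of all genes, 0 by DESeq2 (0.0348% of all genes lower and 0.0387% higher) and 0 at an unadjusted p under 0.05 (2.83% of all genes). The median there was -0.06 beside 0.13 over all genes, and 56 of 78 values were below 0. Differences between KO-NK and KO-LK ran from -0.21 to 0.19.

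**Figure D3:**
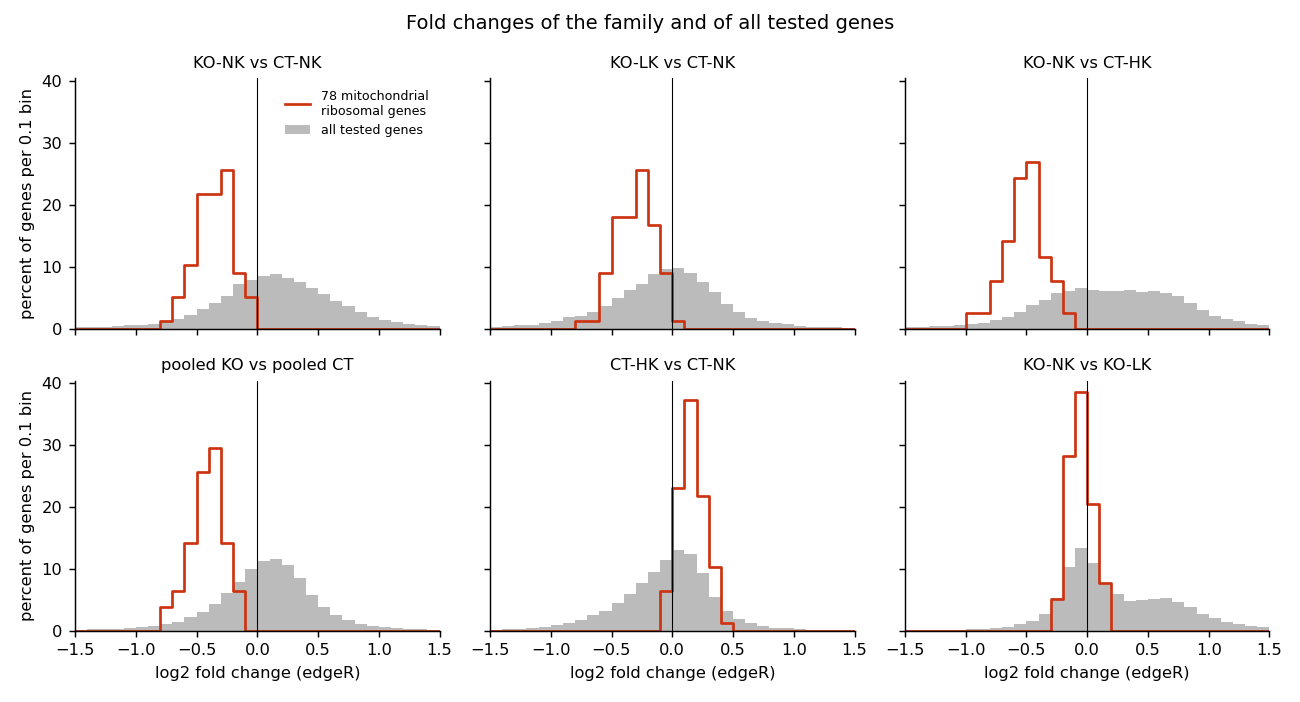
Share of genes (percent) in each 0.1-wide bin of TMM-scaled log2 fold change, for the 78 mitochondrial ribosomal protein genes and for all 25829 genes tested, in the 6 comparisons. The family's median sits at -0.35, -0.29, -0.50 and -0.40 in the knockout comparisons against 0.15, -0.04, 0.21 and 0.09 over all genes, and at 0.17 and -0.06 in the potassium comparisons against -0.01 and 0.13, with the zero line moving relative to both under unscaled TPM.

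Both subunits of the ribosome showed these values. Median log2 fold changes of large and small subunit genes were -0.35 and -0.32 in KO-NK versus CT-NK, and -0.28 and -0.31 in KO-LK versus CT-NK. In KO-NK versus CT-HK the medians were -0.54 and -0.49, and 28 of 51 large subunit genes fell beside 9 of 26 small subunit genes. In the pooled contrast 34 of 51 and 17 of 26 fell. Of all genes, 3.32% fell in KO-NK versus CT-HK and 5.86% in the pooled contrast. On unscaled log2(TPM + 1), the medians of the large and small subunit were -0.03 and 0.01 in KO-NK versus CT-NK and 0.09 and 0.06 in KO-LK versus CT-NK. The difference between the subunits was not tested.

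Mrps36 had the smallest p of the family in KO-NK versus CT-NK. Its gene lies on the minus strand of GRCm38 at chr13:100735955-100744659. The CT-NK libraries held 62.6, 66, 68.1, 69.4 and 75.5 CPM, and CT-HK ranged from 50.6 to 91.4 with a median of 69.6. KO-NK ranged from 27.7 to 52.4 CPM (median 43.4) and KO-LK from 36.5 to 54.9 (median 46.1). All 12 knockout libraries were below all 5 CT-NK libraries, whereas the lowest CT-HK library lay inside the knockout range. Mrps36 fell by 0.67 in KO-NK versus CT-NK (SE 0.16, edgeR adjusted p = 0.0364), to 0.63 of the control level with a 95% interval from 0.496 to 0.799. In KO-LK the difference was -0.60 (SE 0.16, edgeR adjusted p = 0.0582), which missed the threshold.

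Mrps21, a small subunit protein, lies on the minus strand at chr3:95862634-95871519. CT-NK libraries held 62.4, 75.4, 75.7, 77.4 and 89.4 CPM, and CT-HK 60.9 to 106 with a median of 84.7. In KO-NK it ran from 34.5 to 62.7 CPM (median 47.4) and in KO-LK from 40.6 to 67.4 (median 48.0). The lowest control libraries reached just into the knockout range. It fell by 0.66 in KO-NK versus CT-NK (SE 0.17, edgeR adjusted p = 0.0392) and by 0.81 versus CT-HK (SE 0.16, edgeR adjusted p = 0.0026), and in KO-LK versus CT-NK the value was -0.56 (edgeR adjusted p = 0.0814). Mrps21 also had the smallest p of the family in the pooled contrast, where it fell by 0.69 (SE 0.11, edgeR adjusted p = 0.000242).

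Mrpl16, a large subunit protein near the tRNA sites, lies on the plus strand at chr19:11770391-11774960. Its CT-NK libraries held 36.5, 38.2, 43.2, 43.3 and 49.8 CPM, and CT-HK 39.7 to 59.8 with a median of 48.2. KO-NK ranged from 21.6 to 32.9 CPM (median 30.7), and KO-LK from 25.8 to 36.8 (median 34.4). KO-NK lay wholly below both control groups, and KO-LK touched the lowest CT-NK library. Mrpl16 fell by 0.53 in KO-NK versus CT-NK (SE 0.14, edgeR adjusted p = 0.0425) and by 0.70 versus CT-HK (SE 0.13, edgeR adjusted p = 0.0016). In KO-LK versus CT-NK it stood at -0.37 (edgeR adjusted p = 0.183).

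Mrpl4, which lines the exit tunnel of the large subunit, lies on the plus strand at chr9:21002738-21008839. CT-NK libraries held 115, 133, 138, 144 and 162 CPM, and CT-HK 104 to 159 with a median of 148. KO-LK ran from 79.6 to 108 CPM (median 92.8) and KO-NK from 73.0 to 123 (median 102). All KO-LK libraries were below all CT-NK libraries, while KO-NK overlapped both control groups. Mrpl4 fell by 0.56 in KO-LK versus CT-NK (SE 0.14, edgeR adjusted p = 0.0351), to 0.678 of the control level with a 95% interval from 0.553 to 0.832. Its value in KO-NK versus CT-NK was -0.47 (edgeR adjusted p = 0.0973).

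Mrpl28, of the large subunit, lies on the plus strand at chr17:26123500-26126613. Its CT-NK libraries held 94.9, 111, 125, 127 and 140 CPM, against 68.7 to 92.5 in KO-LK (median 77.3). KO-NK ranged from 53.2 to 99.7 CPM (median 92.9) and CT-HK from 92.3 to 159 (median 128). Again KO-LK alone was clear of CT-NK. Mrpl28 fell by 0.59 in KO-LK versus CT-NK (SE 0.16, edgeR adjusted p = 0.0492) and by 0.55 in KO-NK versus CT-HK (edgeR adjusted p = 0.0293), and stood at -0.48 in KO-NK versus CT-NK (edgeR adjusted p = 0.137).

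Mrpl10 and Mrpl12 form the stalk of the large subunit that recruits translation factors, and Mrpl12 also binds mitochondrial RNA polymerase. For Mrpl10 (chr11:97041560-97049213, plus strand) the CT-NK libraries held 62.4, 63.7, 79.3, 84.3 and 87.3 CPM, CT-HK 57.2 to 91.5, KO-NK 38.4 to 62.9 and KO-LK 45.4 to 61.1. For Mrpl12 (chr11:120484613-120489065, plus strand) CT-NK held 149, 153, 155, 167 and 179 CPM, CT-HK 118 to 219, KO-NK 60.4 to 158 and KO-LK 71.5 to 124. In both, KO-LK lay below every CT-NK library and KO-NK did not. Mrpl10 stood at -0.53 in KO-NK (edgeR adjusted p = 0.0558) and -0.53 in KO-LK (edgeR adjusted p = 0.0515) versus CT-NK, just outside the threshold, and fell by 0.52 in KO-NK versus CT-HK (edgeR adjusted p = 0.0213). Mrpl12 stood at -0.70 in KO-LK versus CT-NK (SE 0.19, edgeR adjusted p = 0.0537) and -0.60 in KO-NK versus CT-HK (edgeR adjusted p = 0.0529). Both fell in the pooled contrast, by 0.52 (edgeR adjusted p = 0.000771) and by 0.65 (edgeR adjusted p = 0.00169).

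**Figure D4:**
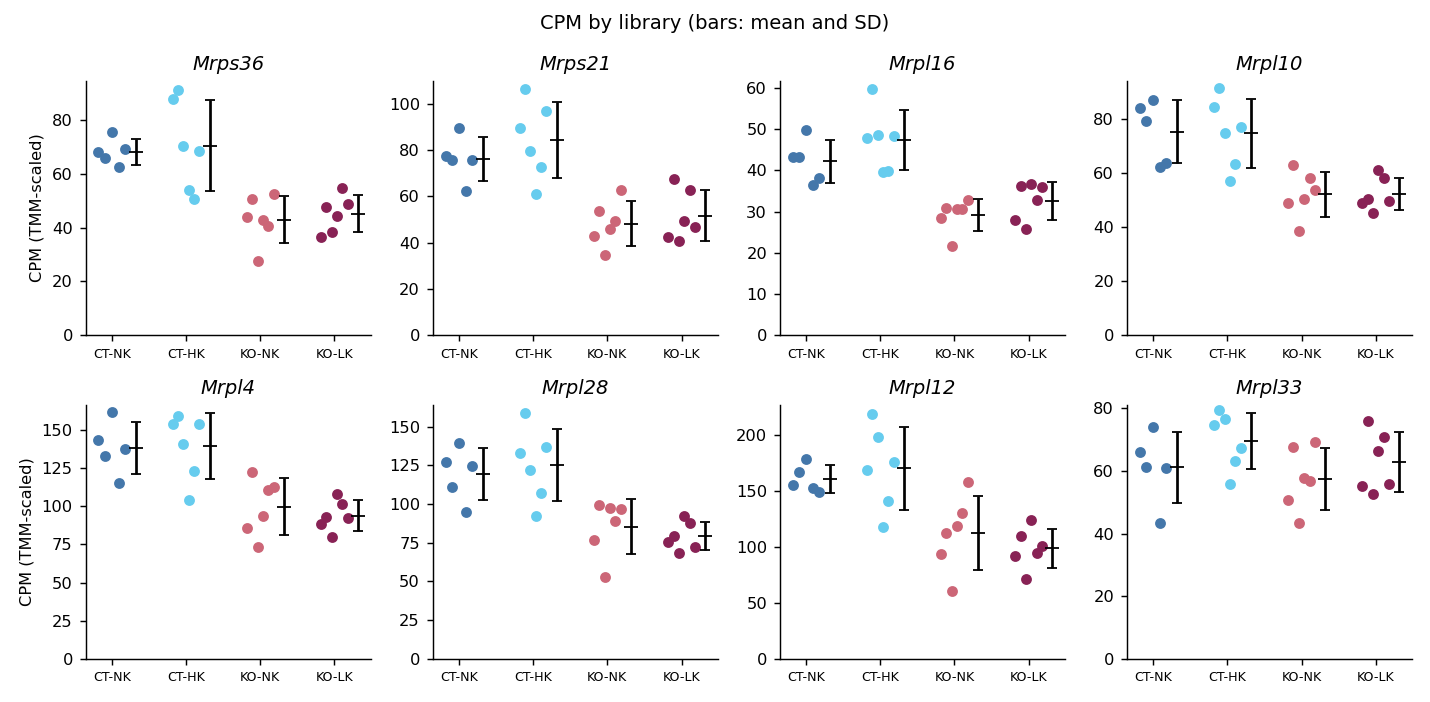
TMM-scaled CPM of 8 genes in each of the 23 libraries by group, with group means and SD. Mrps36 in all 12 knockout libraries lies below the 5 CT-NK libraries, KO-LK lies below CT-NK in Mrpl4, Mrpl28, Mrpl10 and Mrpl12, and Mrpl33 overlaps in every group; on unscaled TPM the groups of each gene overlap.

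The other members chosen by rule include those furthest from the family's pattern. Mrpl33, a small large-subunit protein, ran from 43.4 to 73.9 CPM in CT-NK, 55.9 to 79.3 in CT-HK, 43.3 to 69.1 in KO-NK and 52.8 to 76.0 in KO-LK, so that all groups overlapped, with log2 fold changes of -0.09 in KO-NK and 0.04 in KO-LK versus CT-NK. Mrpl48, of the central protuberance of the large subunit, had the smallest p of the family between the knockout groups, at 0.17 (edgeR adjusted p = 0.928), with 76.0 to 110 CPM in KO-NK and 72.5 to 87.2 in KO-LK. Mrpl32, matured by the m-AAA protease, followed at -0.21 (edgeR adjusted p = 0.928). None of these differences passed the test. Mrps27, a pentatricopeptide repeat protein of the small subunit, ran from 17.1 to 47.0 CPM in CT-NK and from 33.2 to 50.3 in CT-HK, and its value in KO-NK versus CT-HK was -0.55 (edgeR adjusted p = 0.0848). Mrpl46, the partner of Mrpl48 in the central protuberance, stood at 0.35 in CT-HK versus CT-NK (edgeR adjusted p = 0.9998) and fell by 0.58 in KO-NK versus CT-HK (edgeR adjusted p = 0.0348).

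Per length, the family spans a wide range of levels. Mrpl42 was highest with a mean of 341 TPM over all libraries, rank 271 among the genes tested, and Mrps21 followed with 212 TPM, rank 470. Mrpl19 at 6.99 TPM and Mrpl47 at 9.29 TPM were lowest. In CPM, Mrpl42 ran from 156 to 245 in CT-NK, 174 to 291 in CT-HK, 87.1 to 188 in KO-NK and 114 to 173 in KO-LK, and it fell by 0.68 in KO-NK versus CT-HK (edgeR adjusted p = 0.0143). Mrpl47 ran from 15.9 to 19.8 CPM in CT-NK and 10.3 to 18.7 in KO-NK, and fell by 0.57 in KO-NK versus CT-HK (edgeR adjusted p = 0.0362). Mrpl19 fell by 0.54 in that comparison (edgeR adjusted p = 0.0448). On unscaled log2(TPM + 1), Mrpl19 and Mrpl47 were higher in KO-LK than in CT-NK, by 0.40 and 0.31 (limma adjusted p = 0.145 and 0.17).

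Members with known roles in each step of translation were then read in KO-NK versus CT-HK, the comparison of single groups with the most calls. Potassium diet differs there too. None of the members in this paragraph and the next passed the test versus CT-NK. On unscaled log2(TPM + 1), 0 of the 78 fell and 2 rose in KO-NK versus CT-HK, against 0.941% and 28.7% of all genes. The values that follow are on the TMM scale in that comparison. Around the factor-binding and catalytic sites of the large subunit, Mrpl11 of the GTPase-associated centre stood at -0.53 (edgeR adjusted p = 0.0683) and Mrpl3 at -0.46 (edgeR adjusted p = 0.0775). Mrpl58, a peptidyl-tRNA hydrolase built into the large subunit, fell by 0.65 (edgeR adjusted p = 0.0151). Mrpl44, with a ribonuclease III fold, stood at -0.47 (edgeR adjusted p = 0.106), and Mrpl45, which anchors the ribosome to the inner membrane, at -0.46 (edgeR adjusted p = 0.0562). Of these 5, Mrpl58 passed the test in this comparison; in the pooled contrast Mrpl11, Mrpl44, Mrpl45 and Mrpl58 did and Mrpl3 did not.

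In the small subunit, Mrps12 of the decoding centre fell by 0.56 (edgeR adjusted p = 0.0392) and Mrps16 by 0.77 (edgeR adjusted p = 0.00544). Mrps2, Mrps7, Mrps28 and Mrps34 stood between -0.51 and -0.44 and missed the threshold in this comparison, but fell in the pooled contrast, by 0.38, 0.40, 0.44 and 0.39. Mrps22 differed least among them, at -0.21 (edgeR adjusted p = 0.604). The 3 Mrps18 paralogues occupy different places, Mrps18a in the large subunit and Mrps18b and Mrps18c in the small one. Their values were -0.45, -0.41 and -0.53, none past the threshold, and of the 3 only Mrps18a fell in the pooled contrast, by 0.32 (edgeR adjusted p = 0.0459). A difference between the paralogues was not tested. Mrps30, a large subunit protein, stood at -0.33 (edgeR adjusted p = 0.288).

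Counted by libraries rather than by a model, 4 genes had every KO-NK library below every CT-NK library in CPM: Mrpl16, Mrps23, Mrps26 and Mrps36. That is 5.13% of the family, where 1% of all genes did the same. For KO-LK versus CT-NK the number was 9, or 11.5% against 1.46% of all genes, and it included Mrpl4, Mrpl10, Mrpl12, Mrpl28 and Mrps36. For KO-NK versus CT-HK it was 10, or 12.8% against 1.74%, among them Mrpl16, Mrpl41 and Mrps16. No member had all 12 knockout libraries below all 11 control libraries, where 0.422% of all genes did. Mrps23, of the small subunit, was in all 3 single-group counts; it, Mrps26, Mrpl2, Mrpl34 and Mrpl41 are named because of their values. Within groups the median SD of log2 CPM was 0.27 over the 78 genes, from 0.14 for Mrpl48 to 0.42 for Mrpl2. Over all genes tested it was 0.43, but these include many with a lower mean CPM than any member. Genes of like level were not compared.

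Promoters of the family were read for motifs of factors known to act on nuclear genes of mitochondrial proteins. A link between these motifs and the fold changes was not tested. RefSeq start sites on GRCm38.p6 gave a window of 300 bases, 250 before to 50 after the start, for 69 of the 78 genes. Both strands were searched for the NRF1 motif in the form GCGC, any base, TGCGC, for CCGGAAG (ETS core, bound by GABPA) and for AAGATGG (YY1), and the reverse complement of each was counted as a match. The NRF1 form occurred in 13 of 69 genes, or 18.8%, against 9% of 13505 tested protein-coding genes with a window. The ETS core occurred in 26, or 37.7% against 15.8%, and the YY1 motif in 13, or 18.8% against 7.6%. At least 1 of the 3 was present in 43 members, or 62.3%, against 28.4%. A match of letters is a description and not a bound site. The following 30-base stretches, 5′ to 3′ on the gene's strand, show the matches upstream of the start in the members given above with values by library under the naming rule, with the motif or its reverse complement in capitals.
Mrps21, NRF1 form, minus strand: ggaaagtccaGCGCCTGCGCtcagcaccga
Mrpl12, NRF1 form, plus strand: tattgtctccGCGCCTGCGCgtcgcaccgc
Mrpl32, NRF1 form, minus strand: tttgacccttGCGCATGCGCaagaggggcc
Mrpl32, YY1 motif, minus strand: cgcgctctgCCATCTTtacccggaaagtcg
Mrps27, ETS core, plus strand: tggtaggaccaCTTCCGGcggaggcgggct
Mrpl48, ETS core, minus strand: ggttttaaaaaCTTCCGGaaccaagatgct

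These stretches lie at chr3:95871586-95871615 for Mrps21, chr11:120484546-120484575 for Mrpl12, chr13:14613105-14613134 and chr13:14613258-14613287 for Mrpl32, chr13:99344727-99344756 for Mrps27 and chr7:100583146-100583175 for Mrpl48, where the start is an alternative one. For Mrpl32 the RefSeq start lies downstream of the gene's annotated 5′ end (14613165), so its NRF1 stretch falls within the gene. The motif lies 91 bases before the start in Mrps21 and 81 in Mrpl12. In the annotation the Mrps21 stretch overlaps an exon of C920021L13Rik, the YY1 stretch of Mrpl32 an exon of Psma2 and the other Mrpl32 stretch an exon of Mrpl32 itself, and the rest overlap no exon. In the windows of Mrps36, Mrpl16, Mrpl10 and Mrpl28, which fell in at least 1 comparison, none of the 3 was found upstream of the start. Other members named here also hold a match in their window, among them Mrpl58, Mrps16, Mrps23 and Mrpl34 (ETS core), Mrpl44 and Mrpl45 (NRF1 form), Mrps26 (both) and Mrps12 (ETS core and YY1 motif). Members with and without a match are thus both among the genes that fell.

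The ribosome also holds proteins with other names, and 5 were followed: Dap3, Ptcd3, Gadd45gip1, Aurkaip1 and Chchd1. None passed the test versus CT-NK, with medians of -0.48 in KO-NK and -0.49 in KO-LK, where 0.763% and 1.13% of all genes fell. In KO-NK versus CT-HK 3 of 5 fell, against 3.32% of all genes. These were Aurkaip1 by 0.73 (edgeR adjusted p = 0.00512), Dap3, a GTP-binding small subunit protein, by 0.62 (edgeR adjusted p = 0.00934) and Gadd45gip1 by 1.26 (edgeR adjusted p = 0.0117). Gadd45gip1 averaged 19 ± 9.79 CPM (SD, n = 5) in CT-NK and 23.9 ± 12.7 (SD, n = 6) in CT-HK, against 9.98 ± 1.53 (SD, n = 6) in KO-NK and 10.6 ± 2.09 (SD, n = 6) in KO-LK. Its control libraries spread widely.

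Other genes of mitochondrial translation were counted from fixed lists. Of 15 translation factors, 4 fell in KO-NK versus CT-HK and none rose: Pdf, a peptide deformylase, by 0.88 (edgeR adjusted p = 0.00416), Taco1, a translational activator of Cox1, by 0.85 (edgeR adjusted p = 0.00603), Tufm, the elongation factor Tu, by 0.64 (edgeR adjusted p = 0.0198) and Mtif3, an initiation factor, by 0.49 (edgeR adjusted p = 0.0279). Against CT-NK, 0 of the 15 passed in either knockout group. Over all genes, 3.32% fell and 2.46% rose in KO-NK versus CT-HK, and 0.763% (KO-NK) and 1.13% (KO-LK) fell versus CT-NK. Of 26 genes of ribosome assembly and rRNA modification, 2 fell in KO-NK versus CT-HK, the GTPase Mtg1 by 0.63 (edgeR adjusted p = 0.00701) and the rRNA methyltransferase Nsun4 by 0.49 (edgeR adjusted p = 0.0252). Of 20 mitochondrial aminoacyl-tRNA synthetases and amidotransferase subunits, 0 passed in any single comparison and 3 fell in the pooled contrast. In that contrast 5.86% of all genes fell. Medians over the 3 lists were -0.22, -0.20 and -0.14 in KO-NK versus CT-NK and -0.41, -0.37 and -0.44 in KO-NK versus CT-HK.

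Among 23 genes of mitochondrial transcription and RNA processing, the directions were mixed. Slirp, an RNA-binding partner of Lrpprc, fell by 0.65 in KO-NK versus CT-NK (SE 0.17, edgeR adjusted p = 0.0466), and 13 of the 23 values there were below 0. Lrpprc itself stood at -0.08 (edgeR adjusted p = 0.909). In KO-NK versus CT-HK, Slirp, Tefm and Mterf2 fell by 0.64, 0.66 and 0.67, while Fastkd3 rose by 0.69 (edgeR adjusted p = 0.0155). Tfam, which packages mitochondrial DNA, stood at -0.34 in KO-NK (edgeR adjusted p = 0.319) and -0.37 in KO-LK (edgeR adjusted p = 0.229) versus CT-NK.

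Of 10 regulators of nuclear mitochondrial genes, Myc rose in both knockout groups. Its mean was 2.95 ± 1.60 CPM (SD, n = 5) in CT-NK and 1.37 ± 0.68 (SD, n = 6) in CT-HK, against 40.6 ± 27.5 (SD, n = 6) in KO-NK and 36.3 ± 20.6 (SD, n = 6) in KO-LK. The log2 fold change versus CT-NK was 3.78 in KO-NK (SE 0.49, edgeR adjusted p = 0.00026) and 3.62 in KO-LK (SE 0.49, edgeR adjusted p = 0.000254). Esrra, a nuclear receptor of oxidative metabolism, fell by 0.98 in KO-NK versus CT-HK (edgeR adjusted p = 0.0122) and stood at -0.84 in KO-NK (edgeR adjusted p = 0.0854) and -0.72 in KO-LK (edgeR adjusted p = 0.148) versus CT-NK. Ppargc1a, Nrf1, Gabpa and Yy1 passed in none of these comparisons, with values between -0.16 and 0.42.

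The 13 proteins that the mitochondrial ribosome makes had transcripts below the controls on every scale used. Their median log2 fold change was -0.75 in KO-NK and -0.84 in KO-LK versus CT-NK, and -0.86 in KO-NK versus CT-HK. By the edgeR threshold, 0, 1 and 8 of the 13 fell in these comparisons, against 0.763%, 1.13% and 3.32% of all genes. On unscaled log2(TPM + 1) the medians were -0.38, -0.41 and -0.29. They held 14.0% ± 3.62 (SD, n = 5) of all counts in CT-NK and 14.3% ± 3.28 (SD, n = 6) in CT-HK, against 9.96% ± 1.42 (SD, n = 6) in KO-NK and 9.46% ± 1.98 (SD, n = 6) in KO-LK. By library the shares ran from 9.54% to 18.6% (CT-NK), 11.9% to 19.9% (CT-HK), 8.46% to 12.2% (KO-NK) and 7.22% to 12.3% (KO-LK), so the groups overlapped. CT-NK replicates 2 and 3, with the least proximal tubule counts (795 and 572 CPM), held 9.54% and 11.2%. Replicates 1, 4 and 5 (7789 to 20366 CPM) held 15.3% to 18.6%. In CT-HK the highest share, 19.9%, came with 724 CPM (replicate 5). A link to proximal tubule counts was not tested. The nuclear-encoded partners of these 13 proteins, 81 tested subunits of oxidative phosphorylation, had medians of -0.62, -0.74 and -0.79 in the same order. There 30, 47 and 71 of them fell, against 0.763%, 1.13% and 3.32% of all genes. On unscaled log2(TPM + 1) their medians were -0.28, -0.36 and -0.26. The ribosomal family's medians of -0.35, -0.29 and -0.50 lay nearer 0 on the TMM scale.

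Cytosolic ribosomal proteins, the family of like function outside the mitochondrion, stood elsewhere. Of 85 tested, 0 fell in KO-NK and 1 in KO-LK versus CT-NK, and 2 in KO-NK versus CT-HK, and none rose. Among all genes 0.763%, 1.13% and 3.32% fell in these comparisons, and 0.937%, 0.914% and 2.46% rose. Their medians were -0.08, 0.04 and -0.23 on the TMM scale. On unscaled log2(TPM + 1) the medians were 0.28, 0.44 and 0.32, and 22, 53 and 42 of them rose by limma. Medians of all genes on that scale were 0.28, 0.26 and 0.40, and 16.6%, 23.2% and 28.7% of all genes rose, so that in KO-NK versus CT-NK the cytosolic median was that of all genes. Both scales thus put the cytosolic family above the mitochondrial one, in median, in all 3 comparisons. A difference between the families was not tested.

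Several properties of the libraries were set beside the family's values. In each group, the library with the most counts on olfactory and vomeronasal receptor genes, a class known from sensory neurons, was also the one with the lowest mean TMM-scaled level of the 78 genes: CT-NK replicate 4 (3391 CPM on the receptors), CT-HK replicate 4 (4027), KO-NK replicate 3 (6719) and KO-LK replicate 3 (2809). Their family means lay at -0.14, -0.09, -0.78 and -0.39 on the log2 scale, relative to the mean of all libraries, where group means were 0.13, 0.29, -0.23 and -0.17. In TPM the same library was lowest in KO-NK and KO-LK but not in the controls, where CT-NK replicate 1 (-0.18) and CT-HK replicate 5 (-0.36) were lowest, beside -0.10 and 0.06 in the receptor-rich ones. Without the 5 libraries above 2500 receptor CPM, 18 remained, and 4, 12, 34 and 56 members fell in KO-NK and KO-LK versus CT-NK, KO-NK versus CT-HK and the pooled contrast, with medians of -0.33, -0.34, -0.43 and -0.38. Of all genes, 0.927%, 1.95%, 2.82% and 6.3% fell there. With log2 receptor counts as a covariate, chosen after seeing the data, the medians were -0.27, -0.31, -0.39 and -0.35 and 32, 39, 57 and 67 members fell, against 2.62%, 3.86%, 5.11% and 8.79% of all genes.

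Proximal tubule markers had 15 of 15 negative values in each knockout comparison, with 0 past the test outside the pooled contrast, where 5 fell. Versus CT-HK this rested on 1 library: CT-HK replicate 6 held 37075 CPM, and the other 5 held 290 to 935 CPM, below every KO-NK library. Without it, 0 of 15 values were negative in KO-NK versus CT-HK, with a median of 1.91 in place of -1.34 and 1 marker that rose, and the pooled median was -0.50 in place of -2.26, with 0 that fell. In KO-LK versus CT-NK, 11 of the 15 then fell. The family's medians without that library were -0.52 in KO-NK versus CT-HK and -0.41 in the pooled contrast, and 32 and 48 members fell. The shares of all genes that fell in that fit are not given. Markers of the thick ascending limb, another segment outside the dissection, lay the other way: 5 of 6 values were positive in KO-NK and in KO-LK versus CT-NK, with medians of 1.28 and 1.31, and 1 of them, Cldn16, rose in KO-LK (by 1.22, edgeR adjusted p = 0.0137). Their summed level ran from 99.3 to 1483 CPM in CT-NK, 135 to 1740 in CT-HK, 154 to 3708 in KO-NK and 316 to 3044 in KO-LK. The part of these segments in the family's values was not tested beyond the following fit. Its 2 covariates were the mean log2(CPM + 1) of the proximal tubule markers and that of the thick ascending limb markers, not the sums above. The family's medians were then -0.33, -0.29, -0.49 and -0.38, in the same order. No call remained versus CT-NK in either knockout group, and 32 and 31 members fell in the other 2 comparisons. Of all genes 0.476%, 0.252%, 3.61% and 3.67% fell there. Transcript length is a further property: with tested genes in 4 equal classes by effective length, 54 of the 78 genes lie in the shortest class and 19, 3 and 2 in the following ones. Among tested genes with a mean CPM at least that of the lowest member, the median log2 fold change in KO-NK versus CT-NK ran from -0.24 in the shortest class through -0.08 and 0.05 to 0.13 in the longest, and the members' medians by class were -0.37, -0.29, -0.20 and -0.22. In the shortest class the median of such genes was -0.17 in KO-LK versus CT-NK, -0.34 in KO-NK versus CT-HK and -0.24 in the pooled contrast. The members' medians in that class were -0.30, -0.54 and -0.43. With an offset for transcript length in each library, the medians were -0.38, -0.27, -0.46 and -0.36 and 3, 0, 21 and 32 members fell, against 0.709%, 0.964%, 2.37% and 4.69% of all genes.

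**Figure D5:**
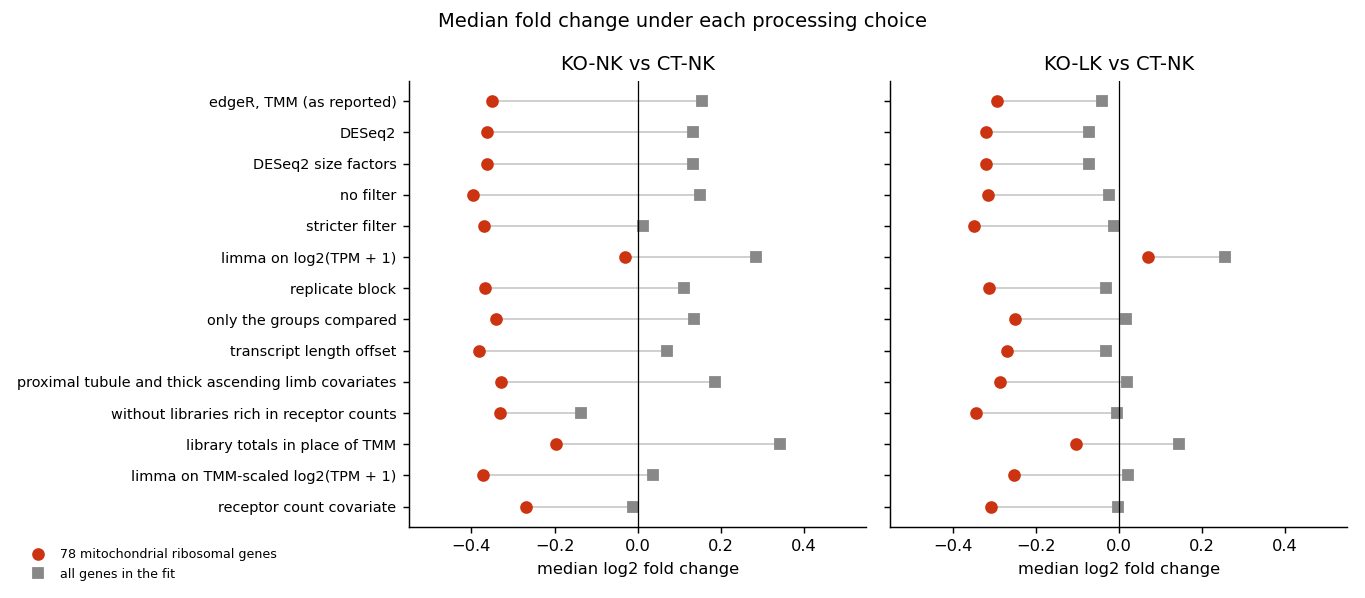
Median log2 fold change of the 78 genes (circles) and of all genes in the fit (squares) under each processing choice, for KO-NK and KO-LK versus CT-NK. The family's median lies left of the median of all genes in every row, and it is at or above -0.03 only for limma on unscaled log2(TPM + 1), with -0.03 and 0.07.

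Some members share bases with other genes, and counts there are less certain because the sources used here do not say whether strand was used. In the annotation 26 of the 78 overlap another protein-coding gene and 36 overlap no other annotated gene. Mrps36, Mrps21, Mrpl16, Mrpl4 and Mrpl28, which carry the calls versus CT-NK, overlap none. Mrpl19 overlaps Gcfc2, Mrpl33 overlaps Rbks, Mrpl47 overlaps Actl6a and Ndufb5, Mrpl48 overlaps Rab6a, and Mrpl46 overlaps Mrps11, each on the opposite strand.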

How the data were processed

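RNA was measured in 23 libraries of microdissected mouse tubules. Salmon 0.14.10 and the build GRCm38.p6 are named in the submitters' processing notes. The deposited tables hold expected counts per gene, of which 35.9% were not whole, and TPM per gene. How transcripts were summed to genes and whether strand was used is not given in the sources used here. Groups came from the sample labels. Counts were rounded, genes were kept by filterByExpr, leaving 25829, and edgeR 4.0.16 in R 4.3.3 (TMM, quasi-likelihood F test) was fitted to all 4 groups with 19 residual degrees of freedom and a common biological coefficient of variation of 0.563. Adjusted p-values are Benjamini-Hochberg over all genes tested, and a call is one below 0.05. Fold changes of single genes are first group minus second. The script was tested on simulated data. DESeq2 1.42.0 and limma 3.58.1, the latter on log2(TPM + 1) of genes with at least 1 TPM in 5 libraries, were alternatives, as were other filters, scalings, covariates, a replicate block and each library left out.

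The 78 members and the other gene lists were chosen with earlier results of these data known. Genes named with values per library are the 4 members of smallest p in each knockout group against CT-NK, the 2 of smallest p in each other comparison, the 2 highest and 2 lowest by mean TPM, and members with a positive fold change against CT-NK (up to 2 each). A set of members with known roles and up to 4 genes of smallest p per pathway list are named with fold changes, and single known regulators besides. Kinases of the Rps6k group, pseudogene symbols and Ndufaf assembly factors were left out of the compared families. List symbols Map1d, Mtrfr and Prorp matched no row. Same-group libraries were compared pairwise over counts: in 55 pairs the lowest chi-square per degree of freedom was 35.1, so none was counted as a repeat of another.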

Additional observations from a re-analysis of the deposited data

Results flagged for a closer look

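In KO-LK, Mrpl19 stood at 20.7 CPM in replicate 3, while the other 5 libraries held 28.5 to 31.4 CPM, a gap that passed Dixon's 95% limit. Replicate 3 is also the KO-LK library with the most counts on olfactory and vomeronasal receptor genes. It was the only gap of this kind in 72 tests of a group's libraries, and chance gives about 1 in 20. Without that library the log2 fold change of Mrpl19 in KO-LK versus CT-NK was 0.01 in place of -0.07.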

How the results depend on the processing

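Relative to all genes, the family's median stayed below 0 in KO-NK and KO-LK versus CT-NK, in KO-NK versus CT-HK and in the pooled contrast under every alternative run, while counts of members that fell depended on the setting. Counts in that order were 3, 2, 38 and 52 as reported, 18, 12, 64 and 65 by DESeq2, 5, 7, 55 and 62 with DESeq2 size factors, 0, 0, 12 and 32 without a filter, and 53, 51, 69 and 72 with a minimum of 5 CPM in 5 libraries. DESeq2 and the stricter filter kept all of the reported calls. With only the compared groups in the fit, 2, 9 and 21 fell in the first 3. A transcript length offset gave 3, 0, 21 and 32, and tubule marker covariates 0, 0, 32 and 31. Without receptor-rich libraries there were 4, 12, 34 and 56. Limma on unscaled log2(TPM + 1) gave 0, 0, 0 and 1 lower and 0, 1, 2 and 6 higher. Chosen after seeing the data, library totals in place of TMM gave 12, 8, 21 and 29, limma on TMM-scaled TPM 21, 10, 42 and 55, and the receptor covariate 32, 39, 57 and 67. The cause of these shifts was not tested.

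Leaving out 1 library gave 0 to 13, 0 to 19, 18 to 62 and 39 to 60 lower calls. The share of all genes that fell is not given for these fits. Relative to all genes, the family's median then lay between -0.64 and -0.23, -0.42 and -0.16, -0.84 and -0.40, and -0.60 and -0.32. The median between KO-NK and KO-LK ranged from -0.16 to 0.0033 (highest without KO-NK replicate 3), and relative to all genes from -0.23 to 0.0099. That median was 0.021 without receptor-rich libraries and 0.031 with the receptor covariate (relative to all genes 0.081 and 0.011). On unscaled TPM the medians were 0.070, 0.023 and 0.049 in KO-LK versus CT-NK, KO-NK versus CT-HK and the pooled contrast, and -0.041 in CT-HK versus CT-NK.

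Signs of single genes that missed the test also turned. Mrpl33 in KO-LK versus CT-NK was -0.0076 with the stricter filter and -0.045 without receptor-rich libraries, and -0.062 to 0.12 with 1 library left out. On unscaled TPM in KO-NK versus CT-NK, Mrpl46 was 0.084, Mrpl48 0.36, Mrpl47 0.18, Mrps27 0.34 and Mrpl33 0.18, and in KO-LK versus CT-NK Mrpl32 was 0.15, Mrpl19 0.40, Mrpl46 0.24, Mrpl48 0.15, Mrpl47 0.31 and Mrps27 0.32. With the length offset, Mrpl19 was 0.11 and Mrpl47 0.0039 in KO-LK. With library totals, Mrpl48, Mrps27 and Mrpl33 were 0.15, 0.12 and 0.068 in KO-NK, and Mrpl19, Mrpl46, Mrpl47 and Mrps27 were 0.12, 0.072, 0.074 and 0.13 in KO-LK. On TMM-scaled TPM, Mrpl48 and Mrps27 were 0.013 and 0.016 in KO-NK, and Mrpl19, Mrpl47 and Mrps27 were 0.10, 0.0093 and 0.0016 in KO-LK. Mrps27 was 0.020 in KO-NK with the receptor covariate, and with 1 library left out -0.24 to 0.11 in KO-NK and -0.27 to 0.078 in KO-LK. Mrpl19 in KO-LK was -0.13 to 0.0072.

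With the replicate number as a block, 2, 0, 28 and 45 members fell, against 0.666%, 1.01%, 2.55% and 4.67% of all genes. Over 33 pairs of equal number, deviations from the group means correlated at -0.037 on average, and 3 of 23 libraries correlated best with their own number, so the numbers did not pair the libraries.

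At these depths every member was counted in every library.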

Other observations

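The processed pseudogene Mrpl23-ps1 held more counts than the gene it derives from. It averaged 46.8 CPM over all libraries, with a highest value of 71.5, while Mrpl23 averaged 6.76 CPM. By group, Mrpl23-ps1 stood at 50.5 ± 9.31 CPM (SD, n = 5) in CT-NK, 54.2 ± 10.4 (SD, n = 6) in CT-HK, 40.4 ± 8.71 (SD, n = 6) in KO-NK and 42.5 ± 6.77 (SD, n = 6) in KO-LK. Its log2 fold changes were -0.32 (edgeR adjusted p = 0.484) and -0.25 (edgeR adjusted p = 0.651) in KO-NK and KO-LK versus CT-NK, and -0.42 in KO-NK versus CT-HK (edgeR adjusted p = 0.136). The value of Mrpl23 in KO-NK versus CT-HK was -0.13, the member closest to 0 there. Reads of near-identical copies can be shared between them, so both values are uncertain. The other 4 pseudogenes with symbols of the family averaged at most 0.101 CPM.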
